A study of Sus scrofa with 8 samples.

Results

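The genes described here code for 10 proteins of the lipid droplet, most of them on its coat: the 5 perilipins (PLIN1, PLIN2, PLIN3, PLIN4 and PLIN5), the 3 CIDE genes (CIDEA, CIDEB and CIDEC), FITM2 and HSD17B13. They were chosen by symbol from the 18103 genes and new transcripts of the expression table, and each symbol matched 1 gene. Hepatic RNA of male Landrace x Large White pigs was measured in 8 libraries, each made from a pool of 2 pigs with equal amounts of RNA. The initial state (4 pools) was sampled at 4 months of age, after 0 months on the steatotic diet and while the animals ate the control diet, as biopsies taken by laparotomy. Steatosis (4 pools) was sampled in the same animals at 6 months of age after euthanasia, when they had eaten for 2 months a diet rich in saturated fat, fructose, cholesterol and cholate, deficient in methionine and restricted in choline. No group was kept on the control diet to 6 months, so diet, age and the way of sampling cannot be told apart. The comparison asks how the genes that build the surface of hepatic lipid droplets behave when fat is loaded into the liver by this diet.

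A lipid droplet is a core of triglycerides and cholesterol esters enclosed by a single layer of phospholipids and coated with proteins. Perilipins cover this surface and control the access of lipases, CIDE proteins act where droplets touch each other or, in hepatocytes, where lipid is loaded onto lipoproteins, and FITM2 sits in the endoplasmic reticulum, where droplets bud. PLIN2 is the perilipin best known from hepatocytes and a common marker of fatty liver, PLIN1 and PLIN4 are typical of adipocytes, PLIN5 of tissues that oxidise fat, and PLIN3 is found in most cells. CIDEA and CIDEC are best known from adipocytes and CIDEB from hepatocytes. HSD17B13 is a droplet enzyme made mainly by hepatocytes.

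The levels are FPKM, fragments scaled to transcript length and library size, so that they can be set side by side between genes. The fold changes are differences of log2(FPKM + 0.1) between steatosis and initial state, fitted with limma over the 13175 genes that reached 0.3 FPKM in 4 or more libraries. All 10 members passed this filter. The median log2 fold change of the tested genes was 0.25, and it was -0.01 after scaling the libraries by the median ratio. Calls that this scaling ends are therefore given beside the result, by gene name or only as a changed count of the list. "Rose" and "fell" refer to the values as deposited. The p-values rest on the spread between 4 pools, and in bulk tissue fewer cells of a type and less RNA per cell cannot be told apart. The libraries were of similar depth, between 92.3% and 100% of the deepest, judged from the step between low values in 33 genes.

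Pool 1 of the initial state stood apart. Of the 8 skeletal muscle markers, 7 were in the table, and their summed level was 2777.03 FPKM in this pool, between 0.82 and 20.83 in the other initial pools, and between 0.10 and 0.35 in steatosis. ACTA1, the actin of skeletal muscle, was at 1439.17 FPKM there and CKM, the muscle creatine kinase, at 557.11. Of the 7 adipocyte markers, 6 were in the table, and their sum was 100.33 FPKM in this pool, 17.44 to 22.66 in the other initial pools and 67.75 to 74.17 in steatosis. FABP4, also among the PPAR target genes below, and CFD made nearly all of the steatosis sum, at 41.86 to 53.59 and 19.76 to 25.12 FPKM. ADIPOQ, the adiponectin gene and a defining marker of adipocytes, was at 27.92 FPKM in this pool, at 0, 0.60 and 0.05 in initial pools 2, 3 and 4, and between 0 and 0.04 in steatosis. LEP, which codes for leptin, was at 0.40 FPKM in this pool and listed at 0 in the other 7. Results of the members whose call or size changed clearly without this pool are given both ways. For the other genes only some such results are.

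None of the coat genes passed the test as higher in steatosis with all pools. With an adjusted p under 0.05 (limma, Benjamini-Hochberg over all tested genes), 0 of the 10 members were higher and 3 were lower (PLIN2, CIDEB and PLIN5), beside 26.7% of all tested genes that were higher and 2.28% that were lower. At an unadjusted p under 0.05 the members gave the same numbers, 0 higher and 3 lower, beside 4978 higher and 544 lower of all 13175 tested genes. Without initial pool 1, 1 member was higher (PLIN4) and 3 were lower, beside 23.7% and 2.14% of all genes tested in that fit. On the median ratio scale 0 members were higher and the same 3 were lower, beside 11.6% and 9.85% of all genes tested in that way. With the stricter limits of the study (log2 fold change beyond 1 and adjusted p below 0.01) set on this limma fit, 0 members were called. Of all tested genes, 6.01% were then higher and 0.334% lower. The study itself, with its own test, lists PLIN4 among its differentially expressed genes of the PPAR signalling pathway. The 2 groups of pools did not overlap in 3 members, all 3 lower in steatosis, beside 29.6% of all tested genes with no overlap and higher values and 2.53% with no overlap and lower values. The median log2 fold change of the 10 members was -0.30, and 8 of them lay below the median of all tested genes.

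**Figure D1:**
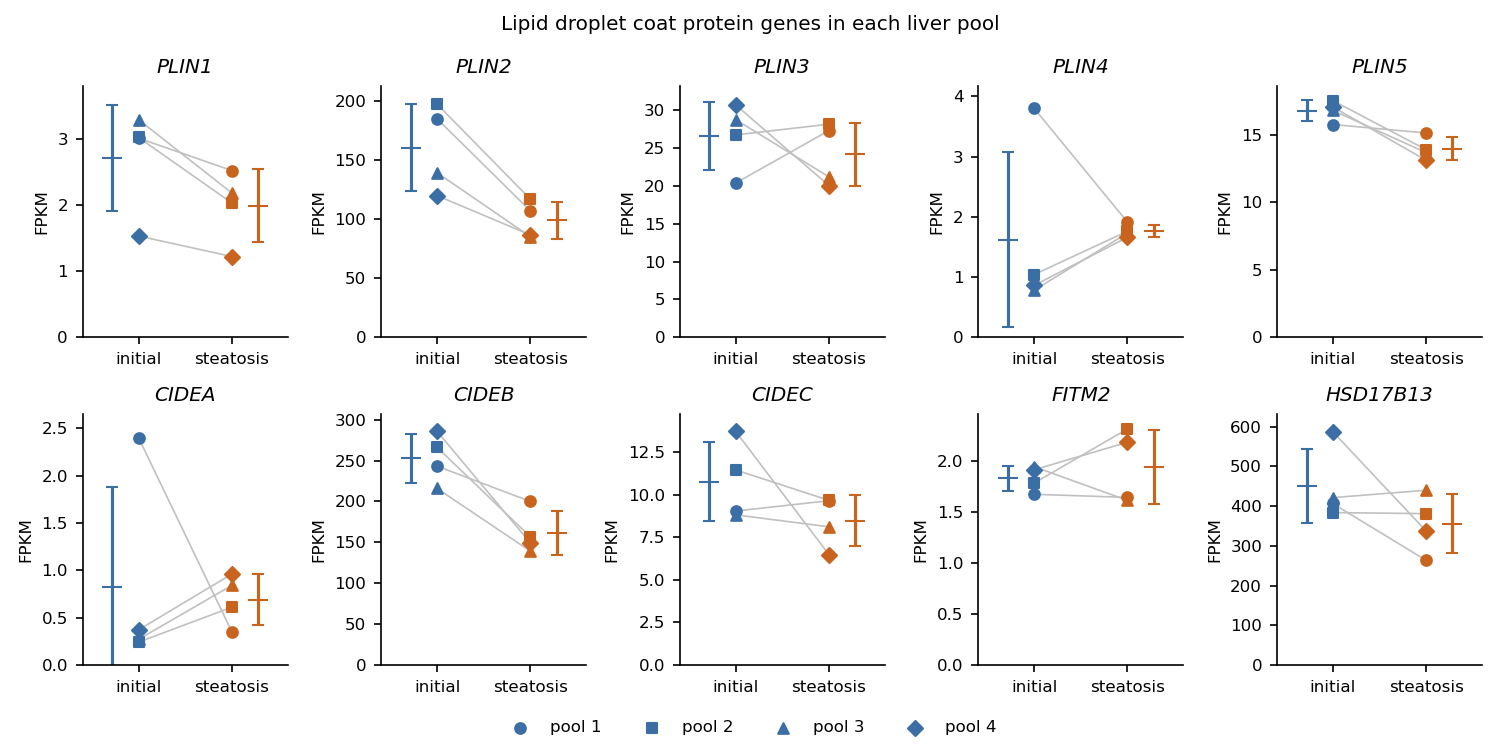
FPKM of each member (vertical axes from 0) in the initial state (blue) and steatosis (orange), with symbols for pools 1 to 4, grey lines between pools of the same number, and bars for the mean and SD of 4 pools (the lower bar of CIDEA is clipped at 0). PLIN2, CIDEB and PLIN5 have no overlap between groups, so they fall in 4 of 4 pools whatever their numbering. The initial means of PLIN4 and CIDEA are set by pool 1.

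The perilipin with the highest level was PLIN2 (gene 397402, chromosome 1, 203683867 to 203709277, Sscrofa11.1). It was at 184.94, 197.33, 139.27 and 119.85 FPKM in initial pools 1 to 4 and at 106.92, 116.85, 85.03 and 86.58 in steatosis pools 1 to 4. The initial pool with the lowest value was above the steatosis pool with the highest, so PLIN2 was lower in 4 of 4 pools whatever their numbering. The mean fell from 160.3 ± 36.8 (SD, n = 4) to 98.8 ± 15.6 FPKM, a decrease of 38.4% (log2 fold change -0.68, SE 0.174, limma adjusted p = 0.0172; exact two-sided permutation p = 0.0286, the smallest that 4 pools against 4 allow). Leaving out steatosis pool 4 gave an adjusted p of 0.0526 and leaving out pool 1 of both groups 0.0544, with log2 fold changes of -0.62 and -0.65. A transcribed pseudogene, LOC100737553, lies within PLIN2 and covers 785 of its bases in the annotation.

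PLIN5 (gene 100142670, chromosome 2, 74304613 to 74314314), which ties droplets to mitochondria, was at 15.78, 17.56, 16.83 and 17.09 FPKM in the initial pools and at 15.15, 13.92, 13.70 and 13.13 in steatosis. Pools within a group were close to each other, and the gap between the groups lay between 15.15 and 15.78 FPKM, both values of pool 1. The mean fell from 16.8 ± 0.753 to 13.98 ± 0.851 FPKM (SD, n = 4), a decrease of 16.9% (log2 fold change -0.27, SE 0.087, limma adjusted p = 0.0451; exact permutation p = 0.0286). This call was lost with the pool number as a replicate block (limma adjusted p = 0.0926), after scaling to a common sum (adjusted p = 0.0637) and in 6 of 8 fits with 1 library left out, without initial pools 2, 3 or 4 or steatosis pools 2, 3 or 4 (adjusted p between 0.0591 and 0.134). After median ratio scaling the log2 fold change was -0.54 (adjusted p = 0.0045).

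PLIN3 (gene 595103, chromosome 2, 73970149 to 73995314), the perilipin that also exists free in the cytosol, was at 20.38, 26.76, 28.79 and 30.73 FPKM in the initial pools and at 27.33, 28.17, 21.20 and 20.05 in steatosis. The groups overlapped over most of their range, and pools 1 and 2 were higher in steatosis while pools 3 and 4 were lower. The difference did not pass the test (log2 fold change -0.14, 95% interval -0.49 to 0.21, limma adjusted p = 0.532).

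PLIN1 (gene 654411, chromosome 7, 55237517 to 55250797), the coat of large adipocyte droplets and the perilipin through which hormones start lipolysis, was at 3.01, 3.02, 3.29 and 1.53 FPKM in the initial pools and at 2.52, 2.03, 2.18 and 1.22 in steatosis. The value was lower in steatosis in 4 of 4 pools of the same number, and pool 4 was the lowest in both groups. The groups overlapped because of pool 4, and the difference did not pass the test (log2 fold change -0.42, 95% interval -1.04 to 0.20, limma adjusted p = 0.277). PLIN1 in initial pool 1 was 1.15 times the mean of the other initial pools, in contrast to the adipocyte genes above.

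PLIN4 (gene 100524667, chromosome 2, 74318624 to 74331920) lies 4309 bases from PLIN5 and codes for a long perilipin with many repeats. It was at 3.80 FPKM in initial pool 1 and at 1.04, 0.78 and 0.86 in initial pools 2, 3 and 4, against 1.91, 1.76, 1.73 and 1.66 in steatosis. Pool 1 of the initial state was the highest of all 8 libraries, whereas the other 3 initial pools were below each of the 4 steatosis pools. With all pools the means were 1.62 ± 1.46 and 1.77 ± 0.105 FPKM (SD, n = 4), and the difference did not pass the test (log2 fold change 0.42, SE 0.411, limma adjusted p = 0.465; exact permutation p = 1). Without initial pool 1 the initial mean was 0.893 ± 0.133 FPKM (SD, n = 3) and PLIN4 was 1.98 times higher in steatosis (log2 fold change 0.92, SE 0.160, limma adjusted p = 0.00377; exact permutation p = 0.0571, the smallest that 3 pools against 4 allow). In steatosis LEP was listed at 0 and ADIPOQ did not exceed 0.04 FPKM. The part of the adipocyte and muscle transcripts of initial pool 1 in its PLIN4 value was not tested.

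**Figure D2:**
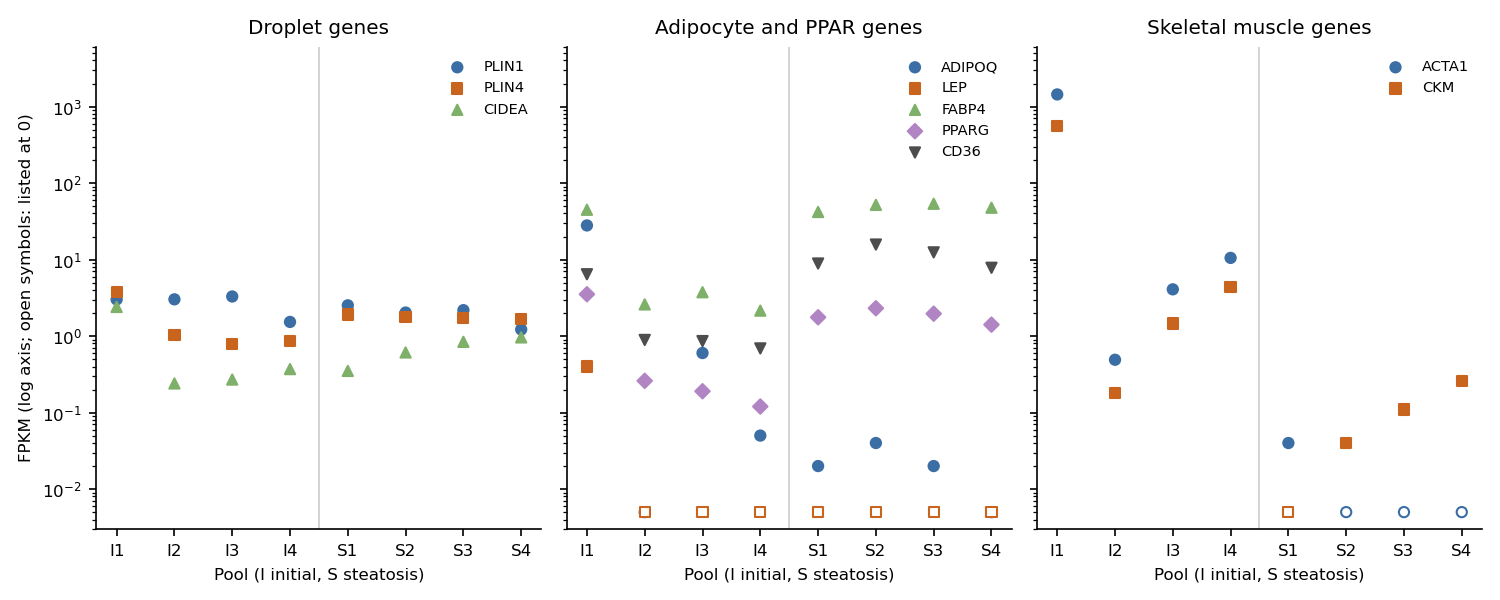
FPKM on a log axis of PLIN1, PLIN4 and CIDEA (left), adipocyte and PPAR genes (middle) and skeletal muscle genes (right) in initial pools I1 to I4 and steatosis pools S1 to S4; open symbols at the bottom mark values listed at 0, where LEP covers ADIPOQ in initial pool 2 and steatosis pool 4. Initial pool 1 has the highest PLIN4 (3.80), CIDEA (2.40), ADIPOQ (27.92) and ACTA1 (1439.17) of the 8 libraries, while FABP4 and CD36 are high in the steatosis pools, where ADIPOQ is at most 0.04.

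Added up per library, the 5 perilipins reached 208.2 ± 34.7 FPKM in the initial state and 140.8 ± 20.6 in steatosis (SD, n = 4). PLIN2 made up 76.4 ± 5.17% of this sum in the initial state and 70.1 ± 1.36% in steatosis, a difference that did not pass the test (exact permutation p = 0.0857). Its share was 81.1, 80.3, 73.7 and 70.5% in initial pools 1 to 4 and 69.5, 71.8, 68.7 and 70.6% in steatosis, so that initial pools 1 and 2 were above the rest and pool 4 was level between the groups. PLIN3 took 13.3 ± 4.14% and 17.1 ± 0.591%, and PLIN5 8.26 ± 1.49% and 10.04 ± 1.12%, each with an exact permutation p of 0.143. The share of PLIN4 was 1.67% in initial pool 1, 0.413 to 0.506% in the other initial pools and 1.08 to 1.40% in steatosis.

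Among the CIDE genes, CIDEB (gene 100127160, chromosome 7, 74982941 to 74985776), which takes part in the lipidation of very low density lipoproteins in hepatocytes, carried nearly all of the signal. It was at 243.27, 266.26, 215.95 and 285.83 FPKM in the initial pools and at 200, 156.65, 139.18 and 149.27 in steatosis. The groups did not overlap, so the value was lower in 4 of 4 pools whatever their numbering. Pool 1 was the highest of the steatosis pools. The mean fell from 252.8 ± 30.1 to 161.3 ± 26.8 FPKM (SD, n = 4), a decrease of 36.2% (log2 fold change -0.65, SE 0.132, 95% interval -0.95 to -0.36, limma adjusted p = 0.00583; exact permutation p = 0.0286). CIDEB stayed lower with an adjusted p under 0.05 in 17 of 17 alternative fits, with a highest adjusted p of 0.0212. Limma's treat test, set against a log2 fold change of 1, was not among these fits. It shares 871 bases of its span with LTB4R2 and 29 with NOP9, and whether counting used the strand is not given in the sources used here. LTB4R2, a leukotriene receptor gene, was between 1.87 and 2.44 FPKM in the initial state and between 2.31 and 2.83 in steatosis.

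CIDEC (gene 100127161, chromosome 13, 66141836 to 66149801), which drives the fusion of droplets into larger ones, was at 9.05, 11.47, 8.83 and 13.74 FPKM in the initial pools and at 9.66, 9.68, 8.12 and 6.49 in steatosis. Pools 2, 3 and 4 were lower in steatosis and pool 1 was higher. The groups overlapped, and the difference did not pass the test (log2 fold change -0.33, 95% interval -0.73 to 0.06, limma adjusted p = 0.180). A long noncoding RNA, LOC106505669, overlaps 3063 bases of CIDEC in the annotation.

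CIDEA (gene 100127171, chromosome 6, 97253074 to 97268355), the member with the lowest level, was at 2.40 FPKM in initial pool 1 and at 0.24, 0.27 and 0.37 in initial pools 2, 3 and 4. In steatosis it was at 0.35, 0.61, 0.84 and 0.96 FPKM in pools 1 to 4. Initial pool 1 was above all other libraries, and of the rest 3 of 4 steatosis pools were above the 3 initial pools. With all pools the difference did not pass the test (log2 fold change 0.28, SE 0.593, limma adjusted p = 0.750), and without initial pool 2 its sign changed (-0.01). Without initial pool 1 the mean was 2.35 times higher in steatosis, with a log2 fold change of 0.95 and a limma adjusted p of 0.0522, and the groups still overlapped. Without pool 1 of both groups the log2 fold change was 1.19 (limma adjusted p = 0.0168).

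The 3 CIDE genes together reached 264.4 ± 32.1 FPKM in the initial state and 170.5 ± 27.5 in steatosis (SD, n = 4). The share of CIDEB in this sum was 95.5, 95.8, 96.0 and 95.3% in initial pools 1 to 4 and 95.2, 93.8, 94.0 and 95.2% in steatosis. It moved from 95.6 ± 0.294% to 94.6 ± 0.779%, a difference of -1.07 percentage points with no overlap between groups (exact permutation p = 0.0286). Set as a paired test on the replicate block of pool numbers, the same difference had an exact sign-flip p of 0.125, the smallest that 4 pairs allow. The share of CIDEC was 4.05 ± 0.428% in the initial state and 5.01 ± 0.767% in steatosis (exact permutation p = 0.0571).

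**Figure D3:**
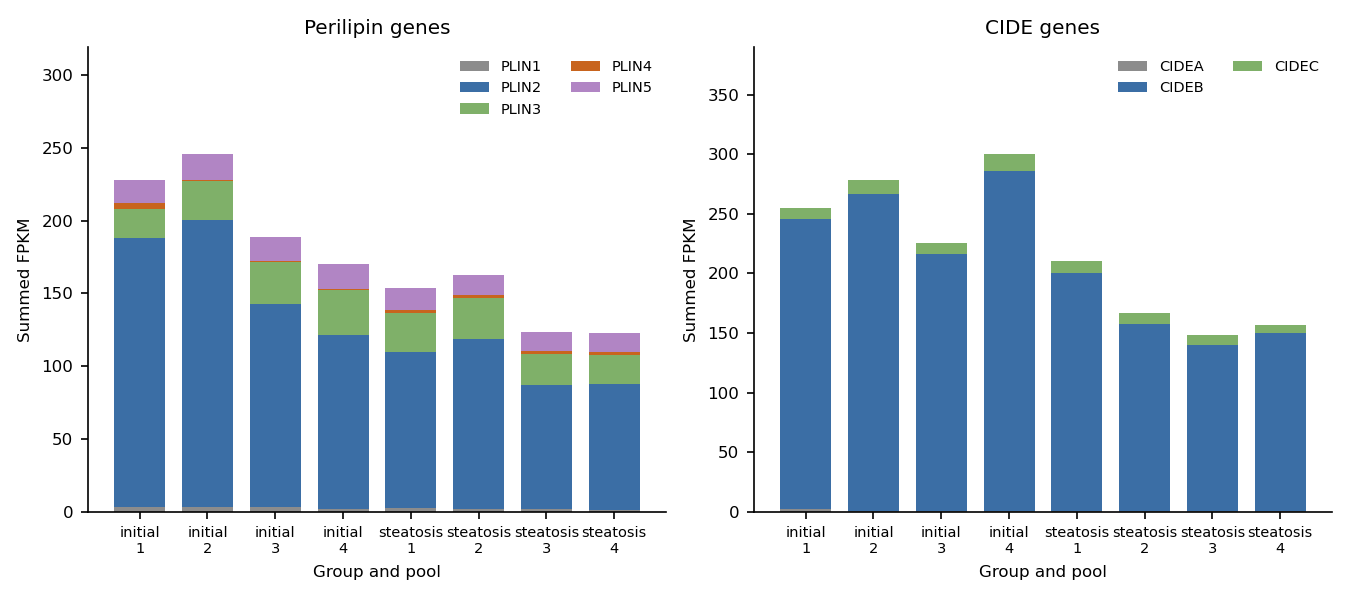
Stacked bars of FPKM per library (vertical axes from 0) for the 5 perilipin genes (left) and the 3 CIDE genes (right), in the initial state and steatosis, pools 1 to 4. PLIN2 and CIDEB form most of each bar, and the summed level is lower in each steatosis pool than in each initial pool in both families.

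FITM2 (gene 100158013, chromosome 17, 46742662 to 46745898), which binds triglyceride during budding of the droplet, was at 1.67, 1.78, 1.94 and 1.91 FPKM in the initial pools and at 1.64, 2.31, 1.61 and 2.18 in steatosis. The 4 initial pools lay between the lower and the upper pair of steatosis pools. The difference did not pass the test (log2 fold change 0.07, 95% interval -0.28 to 0.41, limma adjusted p = 0.776), and its sign changed under upper quartile (-0.16) and median ratio scaling (-0.19).

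HSD17B13 (gene 100626886, chromosome 8, 131555517 to 131570067), a dehydrogenase that acts on retinol and other lipids, had the highest mean level of the members and the 202nd highest of the 18103 genes and transcripts. CIDEB stood at the 325th place and PLIN2 at the 477th. HSD17B13 was at 406.57, 383.70, 421.34 and 587.60 FPKM in the initial pools and at 263.49, 380.96, 439.83 and 337.61 in steatosis. Pools 1 and 4 were well below their initial values, pool 2 was nearly level and pool 3 was higher in steatosis. The means were 449.8 ± 93.2 and 355.5 ± 74.3 FPKM (SD, n = 4), and the difference did not pass the test (log2 fold change -0.34, 95% interval -0.74 to 0.06, limma adjusted p = 0.173).

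**Figure D4:**
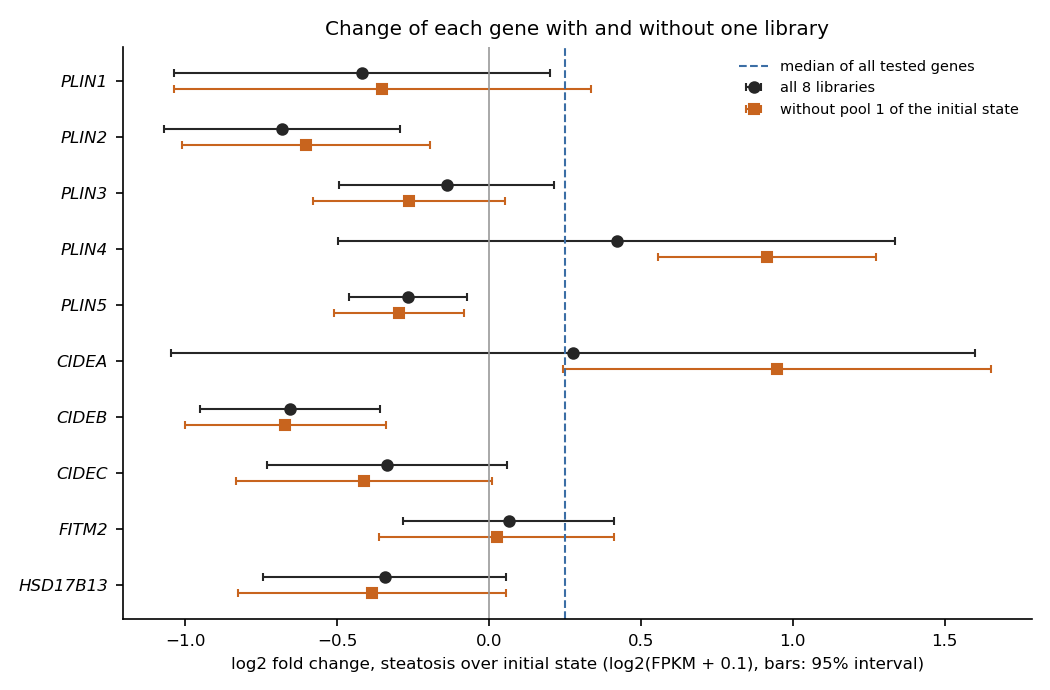
Log2 fold change of each member, steatosis over initial state, with its 95% interval from limma, for all 8 libraries (black) and without initial pool 1 (orange); the dashed line marks the median of all tested genes, 0.25. PLIN4 moves from 0.42 to 0.92 and CIDEA from 0.28 to 0.95 without that pool, while the intervals of PLIN2, PLIN5 and CIDEB stay below 0 both ways.

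The order of the mean levels over the 8 libraries was HSD17B13 (402.6 FPKM), CIDEB (207.1), PLIN2 (129.6), PLIN3 (25.4), PLIN5 (15.4), CIDEC (9.63), PLIN1 (2.35), FITM2 (1.88), PLIN4 (1.69) and CIDEA (0.755). HSD17B13 was above CIDEB and CIDEB above PLIN2 in 8 of 8 libraries. The ranges of PLIN1, FITM2 and PLIN4 overlapped, so their order cannot be told from these pools. CIDEA was below PLIN1 and PLIN4 in each library, but in initial pool 1 it was above FITM2 (2.40 against 1.67 FPKM).

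Genes around the coat were described from 5 lists with 55 genes in the table, of which 18 were higher and 7 lower with an adjusted p under 0.05 (limma), and 5 were higher and 0 lower by the stricter limits (8 were lower at an unadjusted p under 0.05). Over all tested genes the shares were 26.7% higher and 2.28% lower, and 6.01% and 0.334% by the stricter limits. Unadjusted, 22 genes of the lists were higher at a p under 0.05, beside 4978 higher and 544 lower of all 13175 tested genes. After median ratio scaling the lists gave 9 higher and 11 lower, and 0 and 2 by the stricter limits, so the balance between rises and falls depends on the scaling. The median log2 fold change of the 55 genes was 0.25, level with that of all tested genes. The 11 genes of droplet biogenesis and membrane contact sites in the table gave 0 calls (2 at an unadjusted p under 0.05, 1 in each direction) and a median of 0.07. In that list FITM1, the relative of FITM2 best known from muscle, had a log2 fold change of -0.82 (limma adjusted p = 0.0721), and PCYT1A, which makes phosphatidylcholine for the growing surface, one of 0.30 (limma adjusted p = 0.0507). FITM1 passed as lower with the replicate block (limma adjusted p = 0.0382) and after median ratio scaling (limma adjusted p = 0.0456). It was at 3.15 FPKM in initial pool 1 and at 1.18, 1.52 and 2.00 in initial pools 2, 3 and 4. Without initial pool 1 its log2 fold change was -0.57 (limma adjusted p = 0.148).

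Of the 9 droplet lipases and their regulators, 1 rose and 1 fell. LIPA, the acid lipase of the lysosome, was at 83.64 to 133.13 FPKM in the initial state and 145.63 to 230.22 in steatosis (log2 fold change 0.79, SE 0.177, limma adjusted p = 0.0098). G0S2, the inhibitor of adipose triglyceride lipase, was at 37.34, 112.95, 88.87 and 67.06 FPKM in initial pools 1 to 4 and at 25.44, 38.87, 28.95 and 38.81 in steatosis. Its mean of 76.6 ± 32.2 dropped to 33.0 ± 6.87 FPKM (log2 fold change -1.12, SE 0.302, limma adjusted p = 0.0214), with initial pool 1 inside the range of steatosis. Without initial pool 1 the log2 fold change of G0S2 was -1.43 (limma adjusted p = 0.0015), past the stricter limits, and its groups did not overlap. The list then gave 1 higher and 2 lower, the second being ABHD5 (log2 fold change -0.43, limma adjusted p = 0.0455). LIPA, after median ratio scaling, was no longer called (limma adjusted p = 0.0796) and the list gave 0 higher and 2 lower. With the replicate block HILPDA, a lipase inhibitor induced by hypoxia, was also higher (limma adjusted p = 0.0481). The median of this list was 0.26.

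Of 11 other droplet surface proteins in the table, 6 rose and 1 fell, with a median of 0.45. ACSL4, which activates arachidonic acid, rose from 5.61 ± 2.07 to 12.5 ± 1.56 FPKM (SD, n = 4), 2.23 times the initial mean (limma adjusted p = 0.0038). The gene that fell was NSDHL, a dehydrogenase of cholesterol synthesis that is also found on droplets (log2 fold change -0.93, limma adjusted p = 0.0019). NSDHL was at 38.01 FPKM in steatosis pool 1 and between 24.25 and 25.09 in the other steatosis pools. This list gave 4 higher and 3 lower after median ratio scaling, and without initial pool 1 it gave 4 higher and 1 lower. With the replicate block HSD17B7, another enzyme of cholesterol synthesis, was also lower (limma adjusted p = 0.0403).

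Of 12 transcriptional regulators, 5 rose (SREBF1, NR1H3, PPARD, CREB3L3 and RXRA) and PPARGC1A fell, with a median of 0.44. After median ratio scaling SREBF1 was higher and PPARGC1A lower, and the calls of NR1H3, PPARD, CREB3L3 and RXRA were lost (limma adjusted p = 0.0784, 0.0726, 0.302 and 0.495), with a median of 0.17. The log2 fold change of PPARGC1A moved from -0.98 to -0.63 without initial pool 1. SREBF1, the driver of fatty acid synthesis, rose from 7.80 ± 3.19 to 25.2 ± 9.31 FPKM (SD, n = 4; log2 fold change 1.70, limma adjusted p = 0.0045). PPARG, the regulator of adipocyte genes including those of several perilipins and CIDE proteins, was at 3.52, 0.26, 0.19 and 0.12 FPKM in initial pools 1 to 4 and at 1.76, 2.31, 1.96 and 1.41 in steatosis. It had a log2 fold change of 1.85 with all pools (limma adjusted p = 0.0893) and of 2.77 without initial pool 1 (limma adjusted p = 0.000131), the same arrangement of pools as in PLIN4.

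The 12 PPAR target genes outside the droplet split by direction, with 6 higher and 4 lower and a median of 0.47. CD36, a fatty acid transporter, rose from 2.22 ± 2.81 to 11.2 ± 3.59 FPKM (SD, n = 4; log2 fold change 2.87, limma adjusted p = 0.0065). AQP7, a glycerol channel, rose with a log2 fold change of 2.39 (limma adjusted p = 0.0034) and FABP1, the fatty acid binding protein of hepatocytes, with one of 1.22 (limma adjusted p = 0.0077; 0.0530 after median ratio scaling, where the list gave 4 higher and 4 lower). Among those that fell were ACADM and CPT1A, genes of fatty acid oxidation, with log2 fold changes of -0.74 and -0.60 (limma adjusted p = 0.0071 and 0.0389). FABP4 was at 44.73, 2.59, 3.74 and 2.15 FPKM in initial pools 1 to 4 and at 41.86, 51.83, 53.59 and 47.56 in steatosis (log2 fold change 3.10, limma adjusted p = 0.0173). Without initial pool 1 the log2 fold change was 4.09 for FABP4 and 3.58 for CD36, and the 5 lists together gave 16 genes higher and 5 lower. In the PPAR list 5 were then higher and 1 lower, and the call of CPT1A was lost (limma adjusted p = 0.0617).

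**Figure D5:**
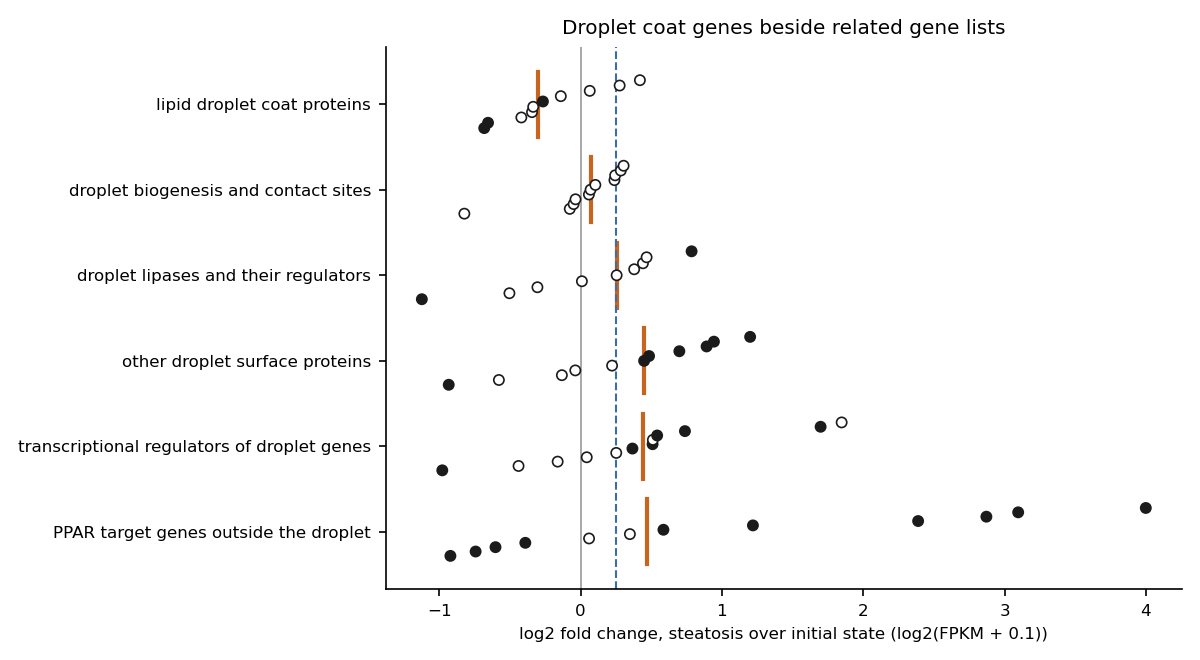
Log2 fold change of each gene (points, filled where the limma adjusted p is under 0.05) for the 10 coat genes and 5 lists around them, with the median of each list in orange and the median of all tested genes, 0.25, as a dashed line. The coat genes have the lowest median, -0.30, and are the only list here with falls and no rise among its filled points, on the scale of the values as deposited.

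Markers of liver cell types are given beside these values, and their part in the coat genes was not tested. The hepatocyte markers (9 symbols, 10 genes in the table) summed to 57150 to 89705 FPKM in the initial state and 51276 to 62750 in steatosis. None of them fell with an adjusted p under 0.05 (limma; 2 fell at an unadjusted p under 0.05), and the 2 that rose are both listed as TF, the transferrin symbol. After median ratio scaling this turned to 0 higher and 2 lower (CPS1, of the urea cycle, and SERPINA1, the antitrypsin gene; limma adjusted p = 0.0395 and 0.0211), and both TF genes lost their call. ALB, the albumin gene, had a log2 fold change of -0.40 (limma adjusted p = 0.168) and TTR, the transthyretin gene, one of -0.03 (limma adjusted p = 0.872). Of 10 macrophage markers, 7 rose and 0 fell (5 and 1, CD14, after median ratio scaling), and their sum was 925.6 to 1188.8 FPKM in the initial state and 1423.2 to 1628.2 in steatosis. All 8 markers of lipid-laden macrophages rose (7 after median ratio scaling), from a sum of 142.3 to 185.1 FPKM to one of 893.4 to 1994.2. Among them GPNMB was at 17.60 to 32.61 FPKM in the initial state and at 405.14 to 1096.22 in steatosis (log2 fold change 4.94, limma adjusted p = 1.08e-05). PLIN2, which macrophages also make when they take up lipid, was lower in each steatosis pool than in each initial pool. Of 8 stellate cell markers, 5 rose (among them LRAT, PDGFRB, RELN and RGS5) and 0 fell (3 and 0 after median ratio scaling), while the collagen genes COL3A1 and COL1A1 had log2 fold changes of 0.97 and 0.81 (limma adjusted p = 0.0545 and 0.301). COL3A1 had a log2 fold change of 1.14 without initial pool 1 (limma adjusted p = 0.0385). The 3 cholangiocyte markers tested gave 0 calls (limma; 1 at an unadjusted p under 0.05), among them EPCAM and KRT19 with log2 fold changes of 0.77 and 0.18. EPCAM had a log2 fold change of 1.32 without initial pool 1 (limma adjusted p = 0.0139), and with the replicate block SOX9 was called higher (limma adjusted p = 0.0240).

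The gene most like each member was found by Pearson's r of log2(FPKM + 0.1) over the 8 libraries, as a description, since the libraries fall into 2 groups of 4. Each r is the highest among all tested genes with a symbol that does not start with LOC. A high r was therefore found for every member and shows no link by itself. For PLIN5 it was MVK, the mevalonate kinase (r = 0.99, and 0.94 for deviations from the group means), and for CIDEB it was MSMO1, a sterol oxidase of cholesterol synthesis (r = 0.98, and 0.89 within groups). MSMO1 was at 230.25 to 298.55 FPKM in the initial pools and at 182.12, 74.66, 66.31 and 73.05 in steatosis pools 1 to 4, so that steatosis pool 1 had the highest value of its group, as it had for CIDEB, PLIN5 and MVK. For PLIN4 it was SHISA4 (r = 0.98, and 0.99 both within groups and without initial pool 1), with 5.68 FPKM in initial pool 1, 0.64 to 0.98 in the other initial pools and 2.49 to 2.83 in steatosis. For PLIN2 it was BRIX1 (r = 0.99), a ribosome assembly gene with a log2 fold change of -0.41 (limma adjusted p = 0.0297). For the other members it was ACTR1B (PLIN1, r = 0.96), ELP6 (CIDEC, 0.94), GPC1 (CIDEA, 0.94), TAF4B (PLIN3, 0.93), ATP5B (HSD17B13, 0.93) and RTL4 (FITM2, 0.88).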

How the data were processed

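Liver RNA of 8 pools was sequenced as 100 bp paired ends on a BGISEQ-500. The authors removed poor reads, mapped the rest with HISAT2 2.0.4 to Sus scrofa 11.1, assembled transcripts with StringTie, merged new coding transcripts into the reference and estimated expression with Bowtie2 2.2.5 and RSEM 1.2.12 (versions from the submitters' processing notes). The deposited values are FPKM, with no scaling between libraries stated in the sources used here. The number of reads was not used, and errors are SDs over the 4 pools of a group. The authors' own comparisons of single pools (fold changes, p-values and FDR) were not used, apart from the gene lengths beside them.

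Genes that reached 0.3 FPKM in 4 or more libraries were compared on log2(FPKM + 0.1) with limma 3.58.1 in R 4.3.3 (trend, group as the only term, Benjamini-Hochberg over 13175 genes). Single values were compared by exact two-sided permutation tests with Python 3.11.15 and scipy 1.17.1. On simulated data the fit found 176 of 190 changed genes (92.6%) with the right sign and 0 unchanged genes. This share was not split by fold change. The simulated fold changes were all larger than those of the members, and a find had to pass the stricter limits. The share therefore cannot say how well changes as small as those of the members are found. Deviations from the group means correlated at 0.163, 0.350, 0.317 and 0.247 for pools 1 to 4. Equal numbers were taken as pairs on this ground, but the labels do not state that they hold the same pigs. Pools of different numbers were not compared in this way, and the main tests did not use the pairing. A replicate block on the pool numbers, 3 other scalings, 2 other filters, 2 other pseudocounts, limma's treat test and libraries left out were alternatives. Giving the marker sums with and without initial pool 1 was chosen after seeing the data.

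Coordinates are those of RefSeq for Sscrofa11.1, matched by gene ID for 10 of 10 members. Protein and promoter descriptions were planned and were not done, since no sequences were used here. The members and lists were chosen with earlier results of these data known. Named genes are the members, up to 3 of each pathway list by size among those past the stricter limits or 2 by adjusted p, the 2 markers of each list with the highest level, and the gene most like each member. ADIPOQ, LEP, PPARG, TF, NSDHL, LTB4R2 and the further genes that make up small counts of calls were named after their values were seen. A few genes of the lists are not reported here by name.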

Additional observations from a re-analysis of the deposited data

Results flagged for a closer look

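Pools that stood apart in their group were searched in 166 groups of 4 values (69 genes and the family shares). The gap from the extreme pool to its nearest neighbour, as a fraction of the group's range, was beyond Dixon's 95% limit in 26 of them, of which 16 were in pool 1 of the initial state. Chance gives about 1 in 20 for independent groups of normally spread values. These groups were not independent, since some genes were named after their values were seen or for their likeness to PLIN4 and CIDEA. The family shares also reuse the values of the members. The count therefore cannot be set against that rate. Among the members, PLIN4 (3.80 FPKM, gap 0.914) and CIDEA (2.40, gap 0.940) stood high in that pool, as did the share of PLIN4 among perilipins (1.67%, gap 0.926) and of CIDEA among CIDE genes (0.942%, gap 0.957), and PLIN1 stood low in initial pool 4 (1.53, gap 0.841).

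The same initial pool 1 was high for ADIPOQ (gap 0.979), LEP (gap 1), FABP4 (gap 0.963), PPARG (gap 0.959), CD36 (6.43 FPKM, gap 0.965), PPARGC1A (6.96, gap 0.837), RGS5 (2.88, gap 0.8291), ACTA1 (gap 0.993), CKM (gap 0.992), SHISA4 (gap 0.933), GPC1, the gene most like CIDEA (1.2, gap 0.95), and EPCAM (10.79, gap 0.880). Other initial pools stood apart for PCYT1A (9.30 in pool 2, gap 0.855), ALB (71003 in pool 4, gap 0.849), PDGFRB (3.67 in pool 4, gap 0.904) and ACTR1B, the gene most like PLIN1 (8.25 in pool 4, gap 0.961). In steatosis, pool 1 stood high for MSMO1 (182.12, gap 0.928), NSDHL (38.01, gap 0.939) and ACTA1 (0.04 against 0 in the others, gap 1), pool 3 stood low for CPS1 (199.84, gap 0.906), and pool 4 high for GPC1 (0.71, gap 0.833).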

How the results depend on the processing

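Over 169 alternative fits of the members' log2 fold changes, 151 kept their direction and their side of an adjusted p of 0.05 (limma). Limma's treat test was not among these fits. With 1 library left out, the log2 fold change of CIDEA lay between -0.0122 (without initial pool 2) and 0.95 (without initial pool 1), and that of FITM2 between -0.0219 (without steatosis pool 2) and 0.14. FITM2 also turned to -0.16 with upper quartile and -0.19 with median ratio scaling. With an adjusted p under 0.05, 1 member (PLIN4) was higher without initial pool 1 and 2 (PLIN4 and CIDEA) were higher without pool 1 of both groups, and 1 (CIDEB) was lower without steatosis pool 4 or without pool 1 of both groups. Over the fits with 1 library left out, 0 to 1 members were higher and 1 to 3 lower.

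In the 5 lists around the coat, the 5 genes past the stricter limits became 1 with upper quartile scaling, 0 with median ratio scaling, 3 with no filter and 0 with limma's treat test (0 to 6 with 1 library left out), and the 0 lower became 1 with upper quartile scaling, 2 with median ratio scaling, 1 with the replicate block and 2 without pool 1 of both groups (0 to 1 with 1 library left out). With an adjusted p under 0.05, the 18 higher became 11 with upper quartile and 9 with median ratio scaling, and the 7 lower became 11 with either, 4 after scaling to a common sum, 4 with no filter and 4 without pool 1 of both groups (2 to 7 with 1 library left out). The difference in the CIDEB share lay between -1.30 and -0.83 percentage points with 1 library left out (exact permutation p = 0.0571 each, the smallest possible), and was -1.34 without pool 1 of both groups (p = 0.1, the smallest possible) and -1.07 with the replicate block (exact sign-flip p = 0.125). The replicate block changed no other call among the members than that of PLIN5. The causes were not tested, apart from the fewer samples in the fits that left libraries out. FPKM holds no counting error, so how far depth limits CIDEA, PLIN4, FITM2 and PLIN1, the members of lowest level, cannot be given.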
